A study of Mus musculus with 3 samples.

Results

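Non-cycling mammary-like cells are lung-sorted cells of the late HER2-positive library that carried milk-gene transcripts and few transcripts of cell division. A barcode of that library was kept with at least 1000 unique molecular identifiers (UMIs, each standing for 1 captured transcript), at least 200 detected genes and a mitochondrial share of UMIs under 25%. It was called mammary-like where Csn3 and Wfdc18 together made up at least 1% of its UMIs. It was called non-cycling where Mki67, Top2a, Cdk1, Ube2c, Birc5 and Ccnb1 summed to 0 to 2 UMIs. The rule gave 125 cells, which are 2.08% (1.74 to 2.47) of the 6007 kept cells of the library and 77.6% (70.4 to 83.8) of its 161 mammary-like cells. The whole series held 19899 kept cells.

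All mice were MMTV-HER2/Neu animals on the FvB strain, in which the mouse mammary tumour virus promoter drives the rat Neu gene and mammary tumours form. The study sorted CD45- HER2+ lung cells, which it treats as cancer cells, from mice of 14 to 18 weeks with no palpable tumour and from mice older than 20 weeks that carried primary tumours. CD45- HER2- lung cells of the younger mice formed the remaining group. Each of the 3 groups was 1 Chromium 3' (version 3) library, and how many mice stand behind a library was not stated. The promoter is active in mammary and in some other epithelia, and a sorted HER2+ cell is a cell with surface signal, whatever its type. No test between groups is possible with 1 library each: every value below describes cells of 1 library, and the ranges in parentheses after a share or a ratio are exact 95% intervals that cover counting error alone. Levels are the summed UMIs of a class scaled to its total (CPM, counts per 10 to the power of 6 UMIs).

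Secretory cells of the mammary gland make caseins and alpha-lactalbumin under prolactin, whose receptor acts through STAT5, and luminal identity rests on transcription factors such as GATA3. Alveolar type 2 cells make the surfactant of the lung and depend on NKX2-1. Disseminated mammary tumour cells that stop dividing in a distant organ are called dormant, and several transcription factors and cell cycle inhibitors have been tied to that state.

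The comparison cells were 3993 alveolar type 2 cells of the same library (Sftpc at least 10% of UMIs, Csn3 with Wfdc18 under 0.1%) and the 36 cycling mammary-like cells, with 3 or more UMIs of the 6 cycle genes. Median UMIs per cell were 20983 in the non-cycling mammary-like cells (lowest cell 1540, highest 45714), 8836 in alveolar type 2 cells and 27178 in cycling cells, of which 1 held 133491. Summed levels give deeper cells more weight, and that cell has the most among the cycling cells. The cut of 3 cycle UMIs was not scaled to depth, so a deeper cell reaches it more easily. The HER2-negative and HER2-positive libraries of the younger mice held 6270 and 7622 kept cells with 25610135 and 49248126 UMIs, and the late library 6007 with 54961019 UMIs. A mammary-like cell was found in neither early library, and counts of 0 leave room for shares up to 0.0478% and 0.0394% there. The libraries shared 10 to 18 kept barcodes pairwise, of which 1 belonged to a non-cycling mammary-like cell.

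The 6 markers given for these cells were present in nearly all of them. Of the 125 cells, 100 held a UMI of each of Csn3, Wfdc18, Csn1s1, Lalba, Gata3 and Trps1, 18 held 5 of them, 4 held 4 and 3 held 3. Of the alveolar type 2 cells 2808 held none and 1 held 4. Csn3 with Wfdc18, the rule's own measure, ranged from 1.0% to 12.7% of UMIs with a median of 4.23%. The cells nearest the threshold stood at 1.0%, 1.03% and 1.21% inside it and at 0.935%, 0.921% and 0.919% outside it, and 25 kept cells lay between 0.1% and 1%. Of the 161 mammary-like cells, 104 held no UMI of the cycle genes, 18 held 1 and 3 held 2. On the other side of that threshold 1 cell held 3 UMIs, 4 held 4 and 1 held 5. The lowest Sftpc share among the alveolar type 2 cells was 10.1%, and the highest outside them 9.91%.

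The libraries of the younger mice held next to no transcripts of Csn3, Wfdc18, Csn1s1 and Lalba. The other milk list genes were not looked at there. Csn3 had 1 UMI among the kept HER2-negative cells and 0 among the HER2-positive cells, and Csn1s1 had 0 in both. Lalba had 12 and 5 UMIs. The luminal factor genes were present in both early libraries without a mammary-like cell: Gata3 stood at 62.0 CPM in the HER2-negative and 10.2 CPM in the HER2-positive library, and Trps1 at 55.7 and 24.9 CPM. In the late library without its mammary-like cells they stood at 7.26 and 26.6 CPM.

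A group of 10 cells stood apart, and values without them are given beside many of the lung genes they carry most of. These 10 cells held Sftpc at 1.48% to 9.34% of UMIs, whereas the other 115 reached 0.325% at most (median 0.0833%). Their median was 29428 UMIs against 19809, and their Csn3 with Wfdc18 share of 4.03% was near the 4.23% of the others. The droplet background, read from barcodes of up to 100 UMIs, held the alveolar type 2 and surfactant genes at 222281 CPM in sum and milk protein genes at 3898 CPM. A doublet score (Scrublet, top 289 cells) marked 4 of the 125 cells and none of these 10. The 289 were set from the number of kept cells, and 236 of them were alveolar type 2 cells. The automatic threshold of the score called 0.899% of kept cells. Whether the 10 cells are pairs of cells was not tested further.

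Marker lists of other cell types differed in what they held. Of the leukocyte markers Ptprc, Cd52, Laptm5, Coro1a, Cd3e, Cd79a, Cd68 and Tyrobp had no UMI in the 125 cells, which leaves Lyz2, a gene alveolar type 2 cells share. All 5 mesothelial markers were at 0. The 8 endothelial markers summed to 38.5 CPM in these cells, 87.5 in alveolar type 2 cells and 7.45 in cycling cells, with Emcn at 0, and 1 cell held the highest count of all 5 that were looked at singly (14 Pecam1, 18 Cldn5 and 23 Ramp2 UMIs). The 8 fibroblast markers summed to 47.2, 35.0 and 7.45 CPM in the same order, and 1 cell held every UMI of Lum (35) and Dcn (30). That cell also held 661 of 743 Mgp UMIs. The pericyte and smooth muscle list summed to 60.2, 109 and 66.1 CPM, with Cspg4 and Rgs5 at 0. The 6 club cell markers summed to 149.7 CPM, 2587 in alveolar type 2 cells and 85.7 in cycling cells, and the 6 ciliated cell markers to 26.3, 120 and 4.66. The 8 alveolar type 1 markers summed to 6797.5, 2333 and 7645 CPM, of which Aqp5, also a gene of secretory glands, made up 6699, 279 and 7604. Of the other alveolar type 1 markers, Rtkn2 was at 0 and Ager at 43.8 against 1069 CPM in alveolar type 2 cells. Without the 10 cells that carry Sftpc, Ager stood at 0.919% of the alveolar type 2 level. The part of these cells in single results was not tested, and genes whose counts rest on 1 cell are named as such.

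Against alveolar type 2 cells, the non-cycling mammary-like cells carried milk protein, luminal mammary, hypoxia and glycolysis genes at higher levels and surfactant, lung transcription factor, fatty acid synthesis and MHC class II genes at lower levels. Of 9439 genes with a mean of at least 5 CPM over both classes, 31.0% were at least 2-fold higher and 12.5% at least 2-fold lower. Alveolar type 2 and surfactant genes summed to 308633 CPM in the alveolar type 2 cells, and the median gene was 0.49 higher on the log2 scale (1.41-fold). Relative to that median, 17.5% of genes were at least 2-fold higher and 19.2% lower. The classes were chosen on Csn3, Wfdc18 and Sftpc, so genes that go with these had to differ, and the counts below are descriptions. The shares of all genes given here are the comparison for every list count against alveolar type 2 cells.

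Of the 22 milk protein genes listed, 14 were measured (a mean of at least 5 CPM), and 13 of them were at least 2-fold higher, with none lower. Csn3 is one of the 13 and chose the cells. Csn1s1 (alpha-S1 casein, ENSMUSG00000070702, chromosome 5, 87666208 to 87682578, + strand, GRCm38) stood at 0, 92.9 and 583 UMIs per 10000 in the lowest, median and highest of the 125 cells and at 0, 0 and 7.40 in the alveolar type 2 cells. The median cell thus lay above every alveolar type 2 cell, although 7 of the 125 held no Csn1s1 UMI. Summed, this was 13856 CPM against 7.75. Csn1s2a, a further casein, stood at 0, 19.4 and 528 UMIs per 10000 and at 7975 against 5.01 CPM. Lalba, which encodes the alpha-lactalbumin subunit of lactose synthase (ENSMUSG00000022991, chromosome 15, 98480400 to 98482721, - strand), stood at 0, 33.1 and 189.8 UMIs per 10000, against 0, 0 and 2.26 in alveolar type 2 cells. Its CPM were 5034 against 2.41, a ratio of 2088 (1694 to 2605). Milk protein genes summed to 617 CPM in alveolar type 2 cells and to 3898 CPM in the droplet background. Csn1s1, Csn1s2a and Lalba made up 7.75, 5.01 and 2.41 of the 617 CPM. With all UMIs of Csn3, Wfdc18 and these genes in alveolar type 2 cells taken as background, the background share of that class was estimated at 1.31%. The source of the other milk list UMIs there was not tested.

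Milk genes were not all present. Csn2, beta-casein, was detected in 18 of the 125 cells at 362 CPM, and 1 cell held 49.1% of its 950 UMIs. Wap, whey acidic protein, had 10 UMIs in 6 cells. Csn1s2b had 50 UMIs in 7 cells, and Spp1 was 92.0% in 1 cell. Butyrophilin (Btn1a1), a protein of the milk fat globule, was at 49.9 CPM with no UMI in alveolar type 2 cells, at least 607-fold higher against a floor of 3 counts over that class. Muc15, a membrane mucin of the same globule, was at 235 CPM against 2 UMIs in alveolar type 2 cells. Mfge8, the lipid droplet gene Plin2 and xanthine dehydrogenase Xdh were 8.23 (7.43 to 9.10), 3.37 (3.18 to 3.57) and 5.63 (5.0 to 6.33) times the alveolar type 2 level.

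The stretches before the start of 4 milk-related genes are shown because casein promoters are known targets of STAT5, whose binding motif is TTCNNNGAA (its own reverse complement, so both strands are searched at once). They are the 250 bases before the start in RefSeq on GRCm38.p6, 5′ to 3′ on the gene's strand, and the motif is in capitals. Csn1s1 is at chr5:87665958-87666207 (plus strand), Csn2 at chr5:87699426-87699675 (minus), Lalba at chr15:98482684-98482933 (minus) and Wfdc18 at chr11:83708754-83709003 (plus).
Csn1s1: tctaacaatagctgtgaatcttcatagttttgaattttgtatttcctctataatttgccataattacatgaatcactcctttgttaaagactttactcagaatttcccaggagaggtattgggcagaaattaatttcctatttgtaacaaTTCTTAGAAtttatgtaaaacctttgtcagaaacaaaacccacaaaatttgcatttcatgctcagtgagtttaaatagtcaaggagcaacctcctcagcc
Csn2: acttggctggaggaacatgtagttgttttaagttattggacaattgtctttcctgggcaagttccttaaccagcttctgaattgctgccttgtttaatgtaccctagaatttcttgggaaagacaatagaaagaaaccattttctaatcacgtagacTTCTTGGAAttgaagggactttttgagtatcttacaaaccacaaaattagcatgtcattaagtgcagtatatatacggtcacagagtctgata
Lalba: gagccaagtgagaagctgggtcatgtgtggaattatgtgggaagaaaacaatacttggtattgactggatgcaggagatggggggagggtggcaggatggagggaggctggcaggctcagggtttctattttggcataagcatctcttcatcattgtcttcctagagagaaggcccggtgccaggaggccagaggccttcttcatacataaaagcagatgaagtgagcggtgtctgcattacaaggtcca
Wfdc18: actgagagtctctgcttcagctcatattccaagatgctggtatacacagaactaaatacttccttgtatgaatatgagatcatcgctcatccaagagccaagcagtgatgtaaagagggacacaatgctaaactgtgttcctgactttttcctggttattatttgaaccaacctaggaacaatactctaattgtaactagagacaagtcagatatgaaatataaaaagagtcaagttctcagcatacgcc
The motif begins 100 bases before the start of Csn1s1 (TTCTTAGAA) and 93 before that of Csn2 (TTCTTGGAA), and these letters are not in the windows of Lalba and Wfdc18. RefSeq gave a window for 16 of the 22 listed genes with Wfdc18, and 3 of the 16 held the motif, the third being Glycam1, which had no UMI in the 3 classes. Of all 32851 such windows, 7.02% held it. A match describes the letters and not binding, and these data do not measure binding.

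Iron, ion and water transport genes had no shared direction. Of 18 measured genes 7 were at least 2-fold higher and 5 lower, or 6 and 5 relative to the median gene, with a median log2 ratio of 0.17 against 0.49 for all genes. Trf, which encodes transferrin, an iron carrier that mammary tissue secretes into milk, stood at 7.01, 178 and 498 UMIs per 10000 in the 125 cells and at 0, 0 and 8.79 in alveolar type 2 cells. Its lowest cell was near the highest alveolar type 2 cell, and summed levels were 20870.2 against 70.4 CPM, a ratio of 297 (285 to 309). Aqp5, a water channel of secretory glands and of alveolar type 1 cells, stood at 6699 against 279 CPM. Folr1, a folate receptor, and Kcnn4, a calcium-activated potassium channel, stood at 685 and 886 CPM against 0.438 and 0.658. Slc12a2, a sodium, potassium and chloride cotransporter, was 3.37 (3.25 to 3.49) times the alveolar type 2 level. The ferritin genes Fth1 and Ftl1, which store iron, were at ratios of 1.13 and 1.11, near parity. Slc34a2, Slc39a8, Cftr and Scnn1a, transporters of lung epithelium, were at least 2-fold lower, as was Tfrc, and stayed so without the 10 cells. Slc34a2 stood at 133 CPM and at 25.2 without them, against 3995 in alveolar type 2 cells.

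Luminal regulators formed the next group, with 17 of 22 measured genes at least 2-fold higher and 3 lower. Gata3 (ENSMUSG00000015619, chromosome 2, 9857078 to 9890034, - strand) stood at 0, 2.62 and 8.13 UMIs per 10000 and had a UMI in 112 of the 125 cells. Its summed level was 299 CPM against 0.548 in alveolar type 2 cells, from 20 UMIs. Trps1, a GATA-type repressor (ENSMUSG00000038679, chromosome 15, 50654752 to 50890463, - strand), stood at 0, 5.15 and 19.0 UMIs per 10000 and at 581 against 2.44 CPM. For both genes the quartiles of the classes did not overlap, while the lowest of the 125 cells had no UMI. Sox10 and Sox9, factors of mammary progenitors, stood at 165 and 106 CPM against 0.301 and 0.274. Kit, a receptor of luminal progenitors, stood at 134 against 1.07 CPM. Elf5, the factor of the secretory lineage, was present in both classes and 5.30 (4.78 to 5.87) times the alveolar type 2 level.

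The prolactin pathway was represented by its receptor and both STAT5 genes. Prlr had 275 UMIs in 95 of the 125 cells (105 CPM) and 1 UMI in 3993 alveolar type 2 cells. Stat5a and Stat5b were 15.2 (11.9 to 19.5) and 3.89 (3.08 to 4.88) times the alveolar type 2 level. The AP-2 genes Tfap2a and Tfap2c stood at 33.9 and 158 CPM. Xbp1, a factor of the secretory pathway, was 8.63 (8.18 to 9.10) times the alveolar type 2 level. Esr1, the estrogen receptor gene, stood at 11.8 CPM and Pgr, the progesterone receptor gene, at 0. Of 6 markers of hormone-sensing luminal cells, Prlr among them, 4 were measured, with 2 at least 2-fold higher and 1 lower. These 6 markers summed to 133 CPM, against 131 in alveolar type 2 cells. Foxa1, Elf3 and Areg were the 3 lower genes of the luminal regulator list. Foxa1, a partner of the estrogen receptor and also a lung factor, was at 3.43 against 55.4 CPM, and 0.854 without the 10 cells that carry Sftpc. Areg, a growth factor of hormone-sensing luminal cells, had its 8 UMIs within those 10 cells (3.05 CPM in all, 0 in the other 115). Of 17 basal and myoepithelial genes 7 were measured, 2 of them at least 2-fold higher (Igfbp5 and Egfr) and 2 lower (Mylk and Sparc, 4 relative to the median gene). The list summed to 1879 CPM, against 488 in alveolar type 2 and 699.5 in cycling cells, and Igfbp5 made up 1776, 2.96 and 622 of these. Krt5, Krt14, Krt17, Trp63 and Cnn1 had no UMI, and 82.1% of the Acta2 UMIs lay in 1 cell.

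**Figure D1:**
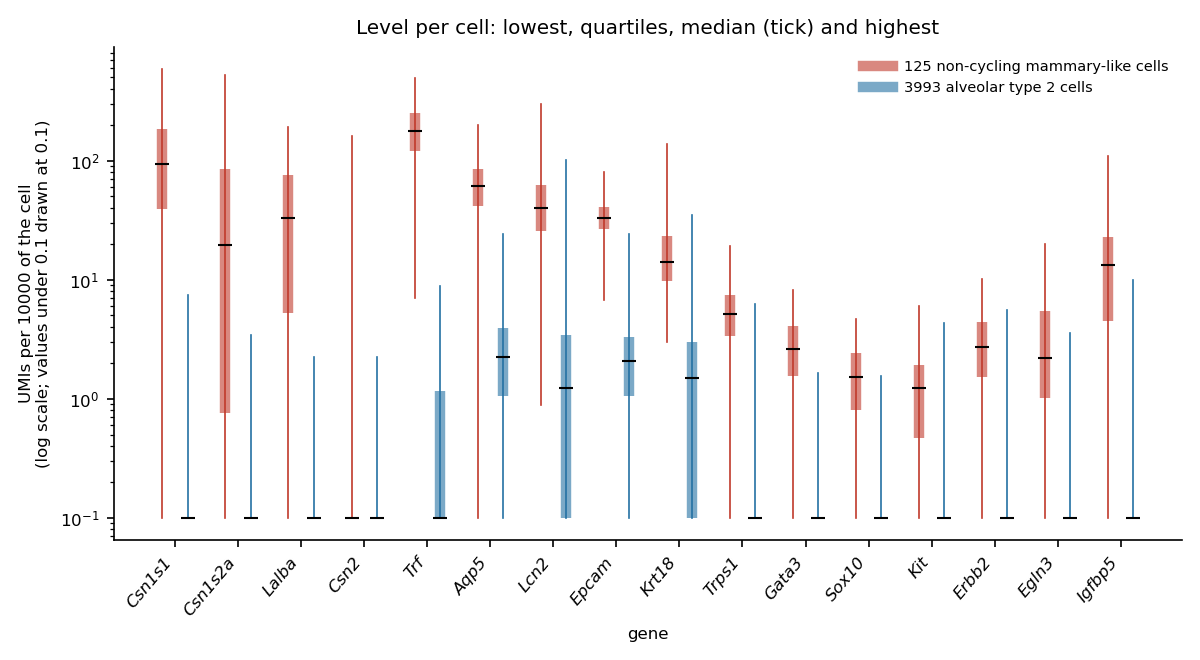
Level of 16 genes per cell in UMIs per 10000 (y axis, log scale, values under 0.1 drawn at 0.1) in the 125 non-cycling mammary-like cells (red) and 3993 alveolar type 2 cells (blue). Thin lines run from the lowest to the highest cell, thick bars span the quartiles and ticks mark medians: Trf has a median of 178 against 0, and Csn2 has a median of 0 in both classes.

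Of 12 measured ErbB receptor and ligand genes, 7 were at least 2-fold higher and 2 lower, against 31.0% and 12.5% of all genes. Relative to the median gene 6 were higher and 2 lower, against 17.5% and 19.2% of all genes. Erbb2 encodes HER2 (ENSMUSG00000062312, chromosome 11, 98412470 to 98437716, + strand). It stood at 0, 2.72 and 10.1 UMIs per 10000 and at 329 CPM, against 15.7 CPM in alveolar type 2 cells, a ratio of 21.0 (18.9 to 23.4). It had a UMI in 111 of the 125 cells and in 527 of the 3993 alveolar type 2 cells, which came through the same HER2+ sort. Rat transgene transcripts are counted under Erbb2 only as far as their reads map to the mouse gene, which the sources used here do not state. Its partner Erbb3 was 3.28 (2.84 to 3.76) times the alveolar type 2 level, and Erbb4 stood at 14.9 against 0.137 CPM. Egfr was 5.83 (4.49 to 7.51) times that level, and its ligand gene Egf stood at 30.5 against 0.164 CPM. Hbegf and Areg, ligands of EGFR, were the lower ones, at 3.05 against 32.8 and 3.05 against 112 CPM. Errfi1, an inhibitor of these receptors, was at a ratio of 1.17 (1.08 to 1.26).

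Epithelial structure genes went in both directions. Of 25 measured claudin, cadherin and junction genes, 8 were at least 2-fold higher and 5 lower, against 31.0% and 12.5% of all genes. Relative to the median gene 7 were higher and 7 lower, against 17.5% and 19.2% of all genes. The higher count of 8 was thus near the share of all genes. Epcam, an epithelial adhesion gene, stood at 6.68, 32.9 and 80.1 UMIs per 10000 and had a UMI in all 125 cells, against 0, 2.06 and 24.4 in alveolar type 2 cells. Its ratio was 14.5 (14.1 to 14.9). Cdh1, E-cadherin, and Ctnnb1, its beta-catenin partner, stood lower, at 0.272 (0.230 to 0.320) and 0.359 (0.328 to 0.393) of the alveolar type 2 level. Cldn10, Cldn8 and Cldn1 were higher, with Cldn10 at 340.2 against 1.29 CPM, and Cldn18, the claudin of alveolar epithelium, was at 29.3 against 778 CPM (2.14 without the 10 cells). Cldn4 was at 37.3 CPM, but 52.0% of its UMIs lay in 1 cell.

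Among 6 measured keratins, the simple epithelial pair Krt8 and Krt18 were 2.98 (2.84 to 3.13) and 7.50 (7.24 to 7.77) times the alveolar type 2 level, and Krt19 and Krt23 were lower. Krt19, a luminal and ductal keratin, had 6 UMIs in 4 of the 125 cells, at 2.29 against 56.5 CPM. Of 11 measured mesenchymal genes 1 was at least 2-fold higher, Lum, whose UMIs all lay in 1 cell, and 4 were lower (1 and 6 relative to the median gene). Vim, the intermediate filament vimentin of mesenchymal cells, stood at 12.2 CPM (32 UMIs) against 18.5. Of 20 measured basement membrane and matrix genes 9 were lower and 3 higher, or 10 and 3 relative to the median gene. The lower ones included the collagen IV genes Col4a1 and Col4a2 at 0.0469 (0.0278 to 0.0742) and 0.0454 (0.0207 to 0.0863) of the alveolar type 2 level, and Sparc at 0.0693 (0.0526 to 0.0896). The higher ones were Lama4, a laminin, and the laminin receptor integrins Itga6 and Itgb4, at 52.6, 179 and 43.8 CPM against 2.30, 14.0 and 0.329.

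Hypoxia and glycolysis genes were at higher levels as a group, with 20 of 26 measured genes at least 2-fold higher and 2 lower (18 and 2 relative to the median gene), and a median log2 ratio of 3.30. Summed over the list, the 125 cells held 18.2, 72.5 and 385 UMIs per 10000 in the lowest, median and highest cell, and alveolar type 2 cells 0, 15.2 and 40.2. The lower quartile of the 125 cells, 56.3, lay above every alveolar type 2 cell. Egln3, a prolyl hydroxylase that senses oxygen and is itself induced by hypoxia, stood at 389 CPM against 0.384, from 14 UMIs in the latter, and was detected in 111 of the 125 cells. Slc2a1, the glucose transporter GLUT1, and Car9, a carbonic anhydrase induced by hypoxia, stood at 87.2 and 36.2 CPM against 5.31 and 0.247. Glycolytic enzymes from Hk1 to Ldha were higher: Pfkl 14.2 (13.1 to 15.5), Pfkp 21.6 (18.4 to 25.3), Aldoa 10.9 (10.5 to 11.3), Pkm 6.38 (6.11 to 6.67) and Ldha 4.15 (3.97 to 4.34) times. Gapdh, Pgk1, Ldha and Eno1 have close copies in the genome, so their counts are uncertain. Epas1, the HIF-2 alpha gene, and P4ha1, a collagen hydroxylase, were the lower ones, at 0.0992 (0.0738 to 0.131) and 0.295 (0.240 to 0.358). Hif1a itself was at 0.776 (0.649 to 0.920).

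Respiratory and lipid genes differed in direction. Of 30 oxidative phosphorylation genes 16 were at least 2-fold higher and none lower, against 31.0% and 12.5% of all genes. Relative to the median gene the counts were 10 and 0, against 17.5% and 19.2% of all genes. Cox8a and Atp5g1 were 3.55 (3.44 to 3.68) and 4.51 (4.28 to 4.76) times the alveolar type 2 level. Of 31 measured fatty acid and sterol genes 17 were lower and 6 higher, or 19 and 5 relative to the median gene. Fasn, Scd1 and Elovl1, which build and extend fatty acids as alveolar type 2 cells need for surfactant lipid, stood at 0.204 (0.176 to 0.236), 0.304 (0.288 to 0.322) and 0.161 (0.139 to 0.185) of the alveolar type 2 level. The higher ones included Srebf1, the regulator of fatty acid synthesis, at 6.03 (5.65 to 6.43), the NADPH-supplying enzyme Me1 at 5.82 (5.43 to 6.24), Thrsp, a lipogenic regulator of the mammary gland, at 8.68 (7.60 to 9.90) and Elovl6 at 26.7 against 0.247 CPM.

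Secretory pathway genes were higher for 19 of 32 members with none lower, but 10 and 1 relative to the median gene. Of all genes, 31.0% were at least 2-fold higher and 12.5% lower, or 17.5% and 19.2% relative to that median. The MHC and interferon counts below stand against the same shares. Calr and Hspa5, chaperones of the endoplasmic reticulum, were 3.88 (3.72 to 4.04) and 2.85 (2.74 to 2.97) times the alveolar type 2 level, and Ssr4, a subunit of the translocon, 5.56 (5.27 to 5.86) times. The stress factor gene Atf4 was at 0.841 (0.731 to 0.963). Of 13 measured MHC class I genes 8 were at least 2-fold higher (4 relative to the median gene) and none lower, with H2-K1 at 3.20 (3.09 to 3.31) and B2m at 2.69 (2.58 to 2.81). The H2 genes have near-identical copies and are uncertain. Of 6 measured MHC class II genes 5 were lower, with and without the 10 cells, with Cd74, the class II chaperone that alveolar type 2 cells express, at 81.1 against 2492 CPM, or 14.1 without the 10 cells. Of 11 interferon-induced genes 7 were higher (4 relative to the median gene) and 1 lower, and Ifi27 stood at 515 against 130.2 CPM.

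Signalling genes showed fewer shared directions. The shares of all genes for the counts here were 31.0% higher and 12.5% lower, or 17.5% and 19.2% relative to the median gene. Of 20 AP-1 and immediate early genes 1 was at least 2-fold higher and 5 lower, or 1 and 11 relative to the median gene. The higher one was Ier3 at 22.2 (20.8 to 23.7), and Dusp1 was at 0.303 (0.246 to 0.370). Of 9 measured chemokine and cytokine genes 7 were lower, among them Cxcl15 and Il33 of alveolar epithelium, and 2 higher, both with and without the 10 cells. Vegfa was 2.21 (1.97 to 2.47) times the alveolar type 2 level, under 2-fold relative to the median gene. Of 13 measured Wnt and Notch genes 6 were higher and 3 lower, or 5 and 4 relative to the median gene. Hey1, a Notch target, stood at 151 against 0.877 CPM, whereas the ligand gene Jag1 had 3 UMIs, all in 1 cell, against 45.0 CPM. Axin2 and Nkd1, Wnt targets, were lower, at 1 and 10 UMIs.

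Genes of the alveolar type 2 and surfactant list were lower for 20 of 21 members, Sftpc included, which the rule used. The list also holds Ager, which is counted above as an alveolar type 1 marker. The 10 cells with Sftpc held 81.2% of the list's member counts at the median gene and 90.3% of the Sftpc counts. In those 10 cells the genes stood at 17.5% to 96.8% of the alveolar type 2 level (median 25.6%). In the other 115 cells the median was 0.631% of it. Sftpb, Sftpa1, Lamp3 and Napsa stood there at 0.478%, 0.365%, 0.462% and 0.501% of the alveolar type 2 level. A few listed genes did not follow this pattern in the 115 cells. Abca3, the surfactant lipid transporter, was at 8.25%, Fabp5 at 19.3%, Scd1 at 28.4%, Etv5 at 35.3% and the protease gene Ctsh at 43.0%. Chil1, a chitinase-like protein, was at 131%, or 247 against 189 CPM.

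**Figure D2:**
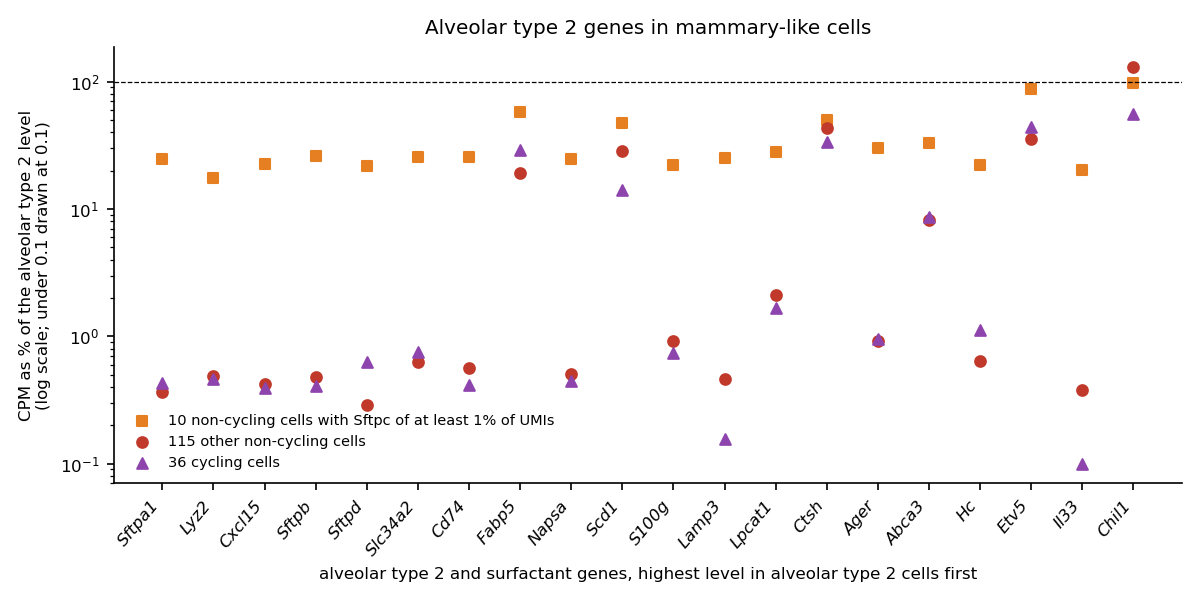
CPM of 20 alveolar type 2 and surfactant genes (Sftpc, which the rule used, not drawn) as a percentage of the alveolar type 2 level (y axis, log scale, under 0.1 drawn at 0.1), in the 10 non-cycling cells with Sftpc of at least 1% of UMIs, the other 115 and the 36 cycling cells. The 10 cells sit at 17.5% to 96.8%, and most genes of the other 115 sit under 1%, with Lpcat1 at 2.11% and Abca3, Fabp5, Scd1, Etv5, Ctsh and Chil1 at 8.25% to 131%. Ager, drawn here, is also an alveolar type 1 marker.

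Of 18 measured lung transcription factor genes 11 were at least 2-fold lower and 2 higher (13 and 2 relative to the median gene), and 12 and 2 without the 10 cells. Nkx2-1, the lung lineage factor, had 17 UMIs in the 125 cells, at 6.48 against 219 CPM, and stood at 1.28 CPM without the 10 cells. Foxa2 and Cebpa were at 2.29 and 18.7 CPM against 89.3 and 204, and at 0.854 and 10.7 without the 10 cells. The higher ones were Sox9 and Nfib, the latter at 6.95 (6.57 to 7.35). Irx1 and Irx2 were at 0.859 (0.791 to 0.932) and 1.78 (1.63 to 1.94) of the alveolar type 2 level and detected in 116 and 113 of the 125 cells.

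**Figure D3:**
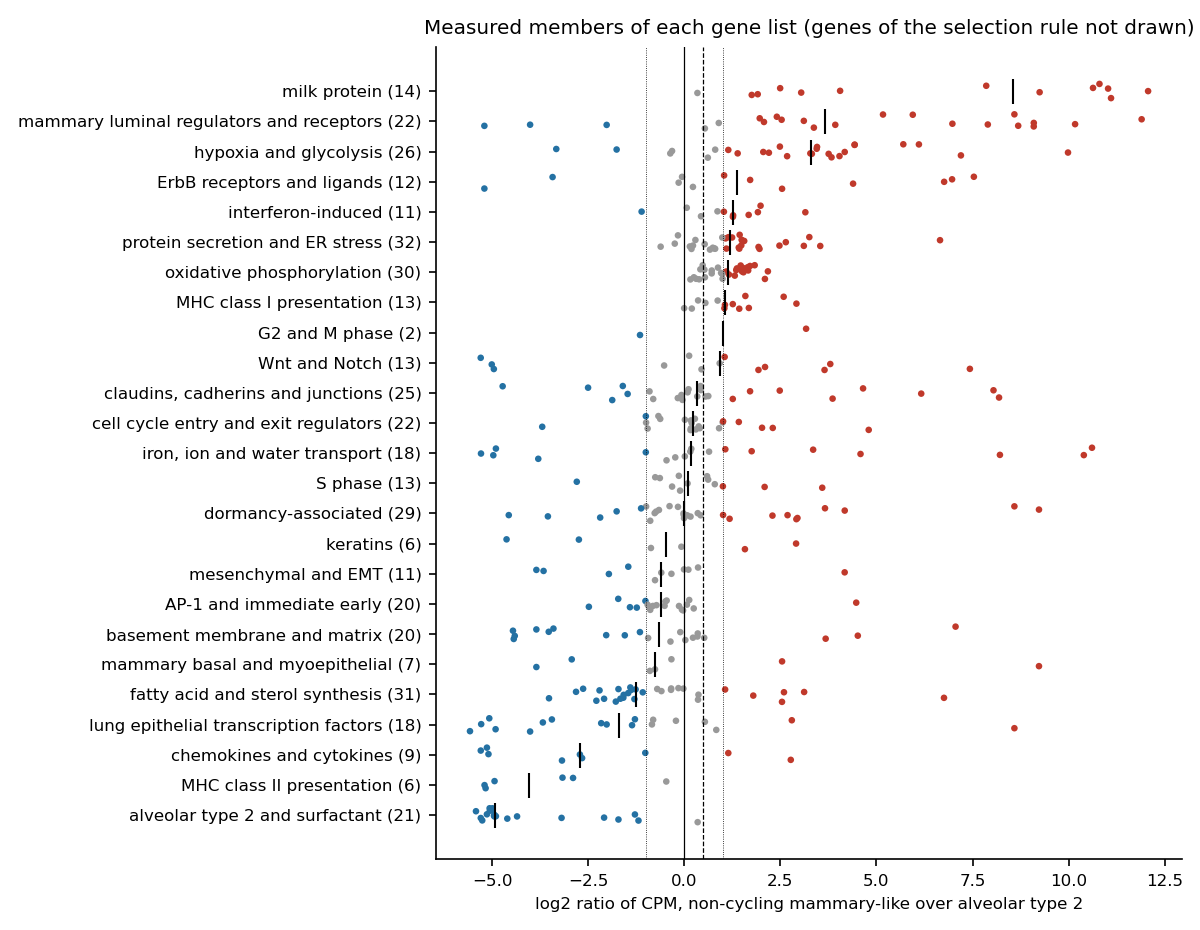
Log2 ratio of CPM, non-cycling mammary-like over alveolar type 2 cells (x axis), for the measured members of 25 gene lists (rows, with the number measured, ordered by median). Red and blue points are at least 2-fold higher and lower, bars are medians, and the dashed line is the median of all genes (0.49). The genes that chose the cells are not drawn as points but count in the medians, the order and the numbers measured. Milk protein genes have the highest median and alveolar type 2 genes the lowest.

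Genes with at least 50 CPM in either class were ranked, without predicted models and ribosomal protein, mitochondrial, haemoglobin and rule genes. The highest ratios were those of Fam150b, Muc15, Prlr, Hhipl2, Slc28a3, Col9a1, Papln, Car6, Enpp3, Comp, Foxi1, Scgb2b27, Csn2, Lalba and Col11a1. Of these, 6 rest on 1 UMI in alveolar type 2 cells and 3 on 2 UMIs, so their order is not resolved. A count of 0 in 1 class was set to a floor of 3 counts. Genes with no UMI in alveolar type 2 cells could thus rank behind genes with 1 or 2 there and miss this list. Fam150b, a ligand gene of the receptor ALK, stood at 306 CPM from 77 cells. Col9a1 and Col11a1, collagens best known from cartilage, stood at 986 and 297 CPM against 0.301 and 0.164, and Comp, a cartilage matrix protein, at 143 CPM. Car6, a secreted carbonic anhydrase, stood at 886 CPM against 0.301. Foxi1, a forkhead factor of ion-transporting epithelial cells, had 185 UMIs in 68 of the 125 cells and 1 in alveolar type 2 cells.

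The lowest ratios were those of Retnla, Aldh1a7, C6, Sgpp2, Myh7, Hdc, Snx7, Fbp2, Gsap, Slc1a3, Lyz2, Tinag, Egfl6, Lrrk2 and Prrg3. Most of these genes had under 20 UMIs in the 125 cells, part of them in the 10 cells with Sftpc, and for Aldh1a7 and Tinag all of them. Retnla, a resistin-like secreted protein, had 3 UMIs in the 125 cells, 1.14 CPM against 199, and its level did not fall when the 10 cells were left out (1.28 CPM). C6, a complement component, and Lrrk2, a kinase, were at 3.05 and 3.43 CPM against 191 and 137, and at 0.427 and 0.427 without them. Lyz2, lysozyme, was at 456 against 19559 CPM, and 96.1 without them. It shares sequence with Lyz1 and is uncertain.

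Variation among the 125 cells was ranked over genes. With each cell thinned to 1000 UMIs, 243 genes had a mean of at least 0.5 UMIs and were ranked by variance over mean, which is 1 for counting noise alone. The 12 highest were Sftpc (55.8), Gm42418 (33.3), Csn1s2a (17.0), Csn1s1 (13.4), Wfdc18 (13.2), Npy (10.7), Csn3 (9.63), Sftpa1 (8.73), Mt1 (7.61), Trf (7.56), Fth1 (5.48) and Scgb2b27 (5.38). Csn3 and Wfdc18 chose the 125 cells, so their ranks are not read. The 10 Sftpc cells held 90.3% of the Sftpc and 89.1% of the Sftpa1 UMIs, and the ranks were not computed without them. Gm42418 is a predicted gene that overlaps ribosomal RNA sequence. Npy, neuropeptide Y, had a thinned UMI in 19 cells and up to 23 in 1 cell, and Mt1, a metallothionein, in 29 cells and up to 19. Summed over the milk protein list without Csn3, the cells held 19.0, 237.6 and 1197 UMIs per 10000 (lowest, median, highest).

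The milk genes did not vary as a block. Over the 115 cells with Sftpc under 1% of UMIs, thinned counts of Csn1s1 and Csn1s2a had a Spearman rank correlation of 0.742, while that of Csn1s1 with Lalba was 0.183 and of Csn1s2a with Lalba 0.161. Both caseins lie in the casein cluster of chromosome 5, where Csn1s2a spans 87774567 to 87788797. Csn3 with Csn1s1 gave 0.159, within a range of Csn3 cut by the rule. Csn1s1 with Lcn2, an iron-binding secreted protein, gave -0.331, Lalba with Krt18 gave -0.331, and Aldoa with Krt18 gave 0.351. The cells share 1 library and the points share its background, so these are descriptions without a test.

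The non-cycling cells were next set against the 36 cycling mammary-like cells, to describe what goes with the division genes inside the mammary-like class. Milk protein and luminal genes were near the same level in both. Several hypoxia and several dormancy-associated genes were higher in the non-cycling cells, and 8 of 30 fatty acid and sterol genes were lower. Of 9409 genes measured, 5.04% were at least 2-fold higher and 7.11% at least 2-fold lower, with a median log2 ratio of -0.09. Relative to that median 5.96% were higher and 6.23% lower.

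The division genes that the rule did not use went with the 6 it used. All 28 G2 and M phase genes, 6 of them from the rule, and 25 of 25 measured S phase genes were at least 2-fold lower, which the choice of cells on division genes leads to. Hmmr and Tpx2, spindle genes, had no UMI in the non-cycling cells against 265 and 126 in the cycling cells. Ccnb2, cyclin B2, had 4 UMIs against 215, and Cdc20, which activates the anaphase ligase, 4 against 169. Kif20b, Prc1, Cdkn3 and Ccna2 complete the 8 lowest ratios. S phase transcripts remained detectable: Tyms, thymidylate synthase, stood at 23.2 CPM, against 156 in cycling and 13.4 in alveolar type 2 cells.

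Thinned to 1000 UMIs, 25 of the 125 non-cycling cells held a UMI of the 28 S phase genes (20.0%, 13.4 to 28.1), against 13 of 36 cycling (36.1%, 20.8 to 53.8) and 630 of 3993 alveolar type 2 cells (15.8%, 14.7 to 16.9). At least 3 such UMIs were found in 4 of 125 (3.20%), 4 of 36 (11.1%) and 4 of 3993 (0.10%). Unthinned, 115, 36 and 3034 cells held at least 1, and the highest cell of each class held 62, 125 and 56 S phase UMIs. The 6 cycle genes of the rule are all G2 and M phase genes, so the rule does not exclude cells with S phase transcripts. Of the 22 other G2 and M phase genes, a thinned UMI was found in 6 non-cycling cells (4.80%, 1.78 to 10.2), 21 cycling cells (58.3%, 40.8 to 74.5) and 432 alveolar type 2 cells (10.8%, 9.87 to 11.8), and unthinned in 90, 36 and 2396. The intervals treat cells of 1 library as draws and cover counting error alone, and the non-cycling cells were chosen for few division UMIs while the alveolar type 2 cells were not, so no order between these 2 classes is read from the shares.

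Of 23 measured regulators of cell cycle entry and exit, 6 were at least 2-fold higher in the non-cycling cells and 5 lower. The higher ones included Cdkn1a, the p21 inhibitor, at 26.3 against 3.73 CPM, from 69 UMIs in 17 cells against 4 UMIs. Btg1 and Btg2, antiproliferative genes, were 2.22 (1.72 to 2.90) and 2.49 (1.96 to 3.19) times the cycling level, and Rbl2, a pocket protein of quiescent cells, 2.32 (1.24 to 4.70) times. Cdkn1b, the p27 inhibitor, was at 104 against 77.3 CPM, a ratio of 1.35 (1.05 to 1.75), and Cdkn2d was lower at 0.114 (0.0656 to 0.189). Ccnd1, cyclin D1, was at 0.654 (0.561 to 0.765).

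Hypoxia and glycolysis genes were at least 2-fold higher for 11 of 26 members and lower for none, with a median log2 ratio of 0.81. Ndrg1 and Bnip3, targets of hypoxia, were 4.46 (2.82 to 7.44) and 4.20 (2.62 to 7.12) times the cycling level. Vegfa was 3.50 (2.53 to 4.93) times that level, Aldoa 2.62 (2.43 to 2.82) times, Ero1l, an oxidase of the endoplasmic reticulum, 2.86 (2.20 to 3.77) times and Egln3 2.11 (1.81 to 2.47) times. Per cell, Aldoa stood at 0, 17.3 and 71.4 UMIs per 10000 in the non-cycling cells and at 0.755, 6.85 and 21.5 in the cycling cells, so the classes overlapped. Summed over the list, the median non-cycling cell held 72.5 UMIs per 10000 (quartiles 56.3 and 106.7, highest cell 385). The median cycling cell held 61.3 (quartiles 52.0 and 80.5, highest cell 118), so typical cells differed less than the single genes named. Hk1 and Pgam1 did not follow, at 0.747 (0.631 to 0.885) and 0.962 (0.868 to 1.07). Part of the list lay in few cells: 45 of the 125 held an Ndrg1 UMI and 20 an Adm UMI.

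Dormancy-associated genes were at least 2-fold higher for 7 of 26 measured members and lower for none, against the 5.04% of all genes. The 7 were Cdkn1a, Cdkn1c, Ndrg1, Thbs1, Gas6, Igfbp5 and Dyrk1b, of which Cdkn1a, Cdkn1c and Ndrg1 also stand in the cell cycle or hypoxia lists. Igfbp5, an insulin-like growth factor binding protein that is also expressed in basal mammary cells, stood at 0, 13.2 and 110.0 UMIs per 10000 in non-cycling, 0, 1.82 and 42.6 in cycling and 0, 0 and 9.90 in alveolar type 2 cells, or 1776, 622 and 2.96 CPM. Thbs1, thrombospondin 1, was at 96.0 against 9.31 CPM and detected in 45 of the 125 cells. Against alveolar type 2 cells the same list had 10 higher and 5 lower of 29 measured, against 31.0% and 12.5% of all genes. Bmp4 and Gas6 were among the lower. Relative to the median gene the counts were 8 and 10, against 17.5% and 19.2% of all genes.

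Zfp281, Nr2f1 and Bhlhe41, which have been tied to dormancy of disseminated tumour cells, were thinly covered. Zfp281, a zinc finger transcription factor gene, had 25 UMIs in 23 of the 125 cells, at 9.52 CPM, against 5.59 in cycling cells (6 UMIs) and 16.3 in alveolar type 2 cells. Its ratio to cycling cells was 1.70 (0.682 to 5.08) and to alveolar type 2 cells 0.585 (0.376 to 0.873), under the median gene. Nr2f1, an orphan nuclear receptor gene, had 1 UMI in the 125 cells, and Bhlhe41, a basic helix-loop-helix repressor gene, 6. A difference of 2-fold in Nr2f1 or Bhlhe41 from cycling cells could not be seen at these counts.

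Milk protein, luminal, lipid and immediate early genes were compared in the same way. None of 15 measured milk protein genes was higher and 1, Wap, lower, at 3.81 CPM from 10 UMIs against 13.0 CPM from 14 UMIs. Csn1s1 was at 1.08 (1.06 to 1.11) and Lalba at 1.37 (1.32 to 1.42) of the cycling level. Of 21 luminal regulators 1 was higher, Runx1 at 2.77 (2.06 to 3.81), and 1 lower, Tfap2b at 0.409 (0.209 to 0.801). Gata3 was at 0.998 (0.876 to 1.14), Trps1 at 1.17 (1.06 to 1.29) and Erbb2 at 1.29 (1.12 to 1.48). Of 30 fatty acid and sterol genes 8 were lower, 3 higher and 19 within 2-fold (median log2 ratio -0.32). Among the lower ones, chosen here after their values were seen, were the sterol pathway genes Hmgcs1 at 0.399 (0.288 to 0.552), Idi1 at 0.379 (0.299 to 0.481) and Sqle at 0.382 (0.282 to 0.519), whereas Srebf1, Lpin1 and Scd1 were 2.50 (2.16 to 2.90), 3.22 (1.91 to 5.81) and 2.16 (1.88 to 2.48) times the cycling level. Of 19 AP-1 and immediate early genes 4 were higher, with Junb at 2.16 (1.77 to 2.66) and Klf6 at 2.84 (2.16 to 3.77), and none lower.

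Some short lists had higher medians against cycling cells than the hypoxia list. Of 7 measured mesenchymal genes 4 were at least 2-fold higher and 1 lower (median log2 ratio 2.0), but all UMIs of Lum, Dcn and Tagln and 82.1% of those of Acta2 lay in 1 cell for each gene. Of 6 measured basal and myoepithelial genes 3 were higher and none lower (median 1.02): Acta2, Tagln and Igfbp5. Of 5 measured MHC class II genes 3 were higher (median 1.80), Cd74, H2-Aa and H2-Ab1, and none without the 10 Sftpc cells. Of 5 measured chemokine and cytokine genes 3 were higher (median 1.5), Cxcl12, Cxcl15 and Vegfa, and 2 without those cells. Cxcl12, a chemokine of stromal cells, stood at 29.0 against 10.2 CPM.

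The 8 highest ratios to cycling cells were those of Mgp, Basp1, Wfdc2, Thbs1, Sftpb, Cd74, Lyz1 and Cbr2. Mgp, matrix Gla protein, had 89.0% of its UMIs in 1 cell. Basp1, a membrane protein, had 171 UMIs in 27 cells against 3 UMIs. Wfdc2, Sftpb, Cd74, Lyz1 and Cbr2 are expressed by lung epithelium, and the 10 Sftpc cells held most of their UMIs. Without these cells Sftpb stood at 32.9 CPM in place of 224, against 27.9 in cycling cells, and Cd74 at 14.1 in place of 81.1, against 10.2. Wfdc2 and Cbr2 stayed above the cycling level, at 28.6 against 6.52 CPM and 41.9 against 14.0 CPM. The alveolar type 2 list had 16 of 20 measured genes at least 2-fold higher than in cycling cells with the 10 cells and 2, with 1 lower, without them.

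**Figure D4:**
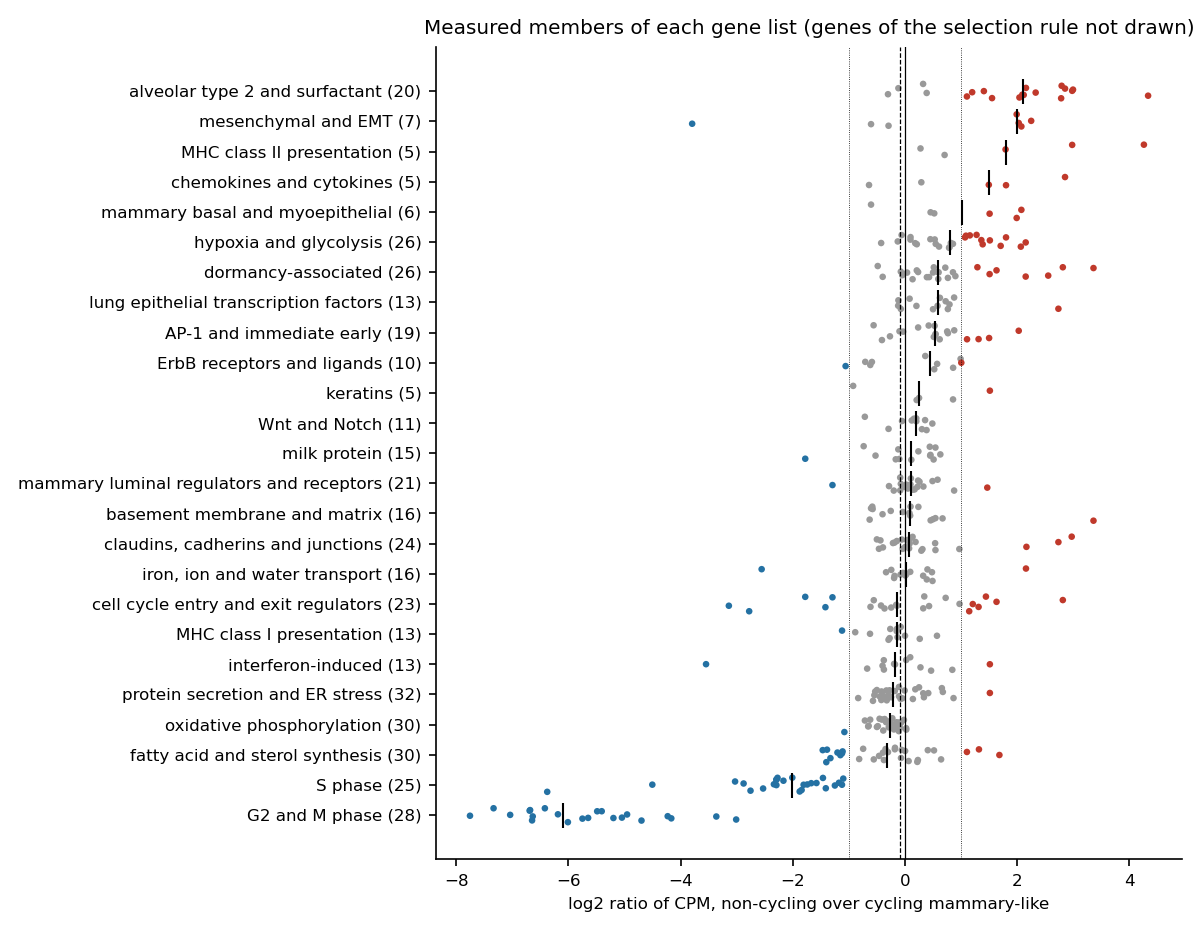
Log2 ratio of CPM, non-cycling over cycling mammary-like cells (x axis), for the measured members of 25 gene lists (rows, with the number measured, ordered by median), with symbols as in the plot of lists against alveolar type 2 cells and the dashed line at the median of all genes (-0.09). Alveolar type 2 genes lie highest with the 10 Sftpc cells included, the hypoxia and dormancy lists have medians of 0.81 and 0.59, and S phase and G2 and M phase genes all lie at least 2-fold lower.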

How the data were processed

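The deposited files hold UMI counts per gene and barcode, 1 unfiltered matrix for each of 3 libraries, written by the authors with matrix software whose version the file headers give as 3.1.0, on mm10 per the submitters' processing notes. They were not normalized. Per the labels' protocols the libraries were 10X Chromium 3' libraries, and no doublet removal is stated. Barcodes with at least 1000 UMIs, 200 genes and under 25% mitochondrial UMIs were kept, classes were set by the stated rule, and doublets were kept in the main values. Counts were summed per class and scaled to CPM. Exact Poisson intervals (95%) and exact conditional intervals of ratios cover counting error alone. UMIs are molecules, and cells are not replicates. With 1 library per group no test was made, and "measured" means a mean of at least 5 CPM over both classes. A gene was called at 2-fold. The members and the gene lists were chosen with earlier results of these data known. Named genes are the 15 highest and 15 lowest ratios to alveolar type 2 cells and the 8 highest and 8 lowest to cycling cells among genes with at least 50 CPM in a class, without predicted models, ribosomal protein, mitochondrial, haemoglobin and rule genes, with the extremes of the lists, the label markers, Erbb2, Zfp281, Nr2f1 and Bhlhe41. Other listed genes that the text names were chosen after their values were seen. Gene coordinates are those of GENCODE vM21 and matched 27645 of 27998 gene IDs. Python 3.11.15, numpy 2.4.6, scipy 1.17.1, pandas 2.3.3, scanpy 1.11.5 and matplotlib 3.10.9 were used. The ratio script was tested on simulated data. Alternatives covered scaling, cell weights, expression filters, doublets, droplet background and each threshold of the classes. The counts of the luminal list include 1 gene that is not reported here.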

Additional observations from a re-analysis of the deposited data

How the results depend on the processing

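No paired analysis was possible because each group holds 1 library. The number of non-cycling mammary-like cells ranged from 88 to 121 under other thresholds. The 2925 genes higher than in alveolar type 2 cells became 1652 with median-of-ratios scaling, 1853 with a total that left out milk and surfactant genes, 4757 with no filter on low values and 1674 with a mean of at least 20 CPM. The 1179 lower genes became 1813 with median-of-ratios scaling, 1896 with no filter and 616 with the mean of at least 20 CPM. Against cycling cells, the 474 higher genes became 993 with no filter, 124 with the mean of at least 20 CPM and 934 where non-cycling cells held 0 cycle UMIs and cycling cells at least 1 per 1000, and the 669 lower genes became 1420, 267 and 1210. The other 47 recomputed totals stayed within 1.5 times.

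Some named genes changed sign on the log2 scale, and the cause was not tested. Against alveolar type 2 cells, Prc1 stood at 0.95 with equal weight per cell and Mgp at -1.02 without the top doublet scores. Against cycling cells, Acta2 stood at -0.44 and Cldn5 at -0.25 without the top doublet scores, and Acta2 at -0.23 without its top cell. With the background subtracted, Lyz2 stood at -4.35, Ager at -1.82, Cxcl15 at -0.039, Napsa at -0.23 and Sftpa1 at -4.51. That step took all UMIs of Sftpc, Sftpb, Sftpa1, Sftpd, Cxcl15 and Lamp3 in mammary-like cells as background. The share so estimated was 4.47% in non-cycling and 0.505% in cycling cells. The 10 Sftpc cells, which held 90.3% of the non-cycling Sftpc UMIs, were included, so these lung gene values are not read as class differences. Without the 10 Sftpc cells, Egfl6 stood at -0.12, Ager at -0.060, H2-Ab1 at -1.12, Cldn18 at -0.80, Foxa1 at -0.12, Sftpa1 at -0.24 and Slc34a2 at -0.24. Each class is cells of 1 library, so depth limits single genes: a gene with few UMIs has a wide interval, and no spread between mice is known.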
